A study of Populus trichocarpa with 12 samples.

Results

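Broad changed regions are stretches of at least 3 kb over which acetylation of histone H3 at lysine 9 (H3K9ac) differed between droughted and watered poplar wood-forming tissue. They were taken from the authors' deposited tables of changed regions, one for each drought day. Regions were chosen by their deposited length and enrichment. Each region has 2 deposited enrichments, the ratios of drought and of day 0 immunoprecipitated reads to input reads. The inputs used for each group are those of the other group, per the file headers. A region was kept if its length was 3000 bp or more and the geometric mean of its 2 enrichments was 0.5 or more. This gave 461 of 10605 listed regions at day 5 and 430 of 12101 at day 7, or 891 of 22706 in all. A further 24 regions at day 5 and 13 at day 7 were long enough but fell under the enrichment minimum, and all of these were gained. Length, listing and enrichment all come from the drought and day 0 libraries, so the changes against day 0 are given as a description and were not tested.

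H3K9ac is an acetyl mark on the tail of histone H3 that is placed by histone acetyltransferases and removed by histone deacetylases. In plants it is found mainly over promoters and the start of transcribed genes, and it is generally more abundant on active genes than on silent ones. A stretch that changes over several kb therefore spans several nucleosomes and can reach beyond a single promoter.

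Chromatin came from stem differentiating xylem, the layer of the stem in which new wood cells form, of Populus trichocarpa plants grown for 3 months. Day 0 plants were fully irrigated and had a soil water content of 74% and a xylem water content of 80.6%. Day 5 plants had gone without water for 5 days, which the labels call mild drought, with 33% in the soil and 75.3% in the xylem. Day 7 plants had gone without water for 7 days, which the labels call severe drought, with 29% and 74.3%. Each group had 2 H3K9ac libraries and 2 input libraries of chromatin that was not immunoprecipitated, and day 0 served both comparisons. The labels name no genotype and give no plant of origin for each replicate, so p-values measure only the spread between these libraries, which may be technical. Day 0 is the only watered group, and drought cannot be told apart from time or handling. In a whole tissue, a change in the cells that carry a mark and a change in the mark per cell cannot be told apart.

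The libraries held between 3862141 and 5813447 reads within the listed regions, and between 353908 and 598710 within the broad regions. The median broad region held between 775 and 1211 reads per library, a counting error of 2.87% to 3.59%, and the smallest value in any broad region was 262 reads. PCR reads without molecular identifiers are not independent molecules, so these errors cover counting alone. Gained and lost, like rose and fell, give the sign of the change against day 0 and no test of it. Values are the authors' normalised reads per region, in which each library was divided by its normalisation constant. Coordinates count from 1 and belong to a genome build that the sources used here do not name. Genes were not assigned to the regions, no sequence is printed, and the tissue could not be checked against marker genes.

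At day 5, 202 of the 461 broad regions gained H3K9ac (43.8%) and 259 lost it, while mean reads were higher at drought in 47.1% of all listed regions. The median gained region rose from 233 to 387 normalised reads per kb, and the median lost region fell from 356 to 216. The median change was 0.66 on the log2 scale in gained regions and -0.70 in lost regions. All 461 passed an adjusted p of 0.05 in the authors' deposited table, where 91.5% of all listed regions did, 43.3% as gains and 48.2% as losses. In all 461 the day 5 and day 0 libraries did not overlap, which held for 96.9% of all listed regions. Both counts follow from the way the regions were listed, and nothing is read from them.

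The broad regions covered 1667.7 kb at day 5, which was 10.2% of all listed sequence although they were 4.35% of the listed regions. Their median length was 3400 bp, 239 of them were shorter than 3500 bp and 18 reached 5 kb. Of these 18, 13 were lost and 5 were gained. The median size of change was 0.68 in the broad regions on the log2 scale, against 0.41 over all listed regions of day 5. A change past 1 on the log2 scale was found in 44 broad regions (9.54%), 22 gained and 22 lost, against 1.61% of all listed regions. The share was 6.69% in regions of 2500 to 2900 bp and 8.64% in those of exactly 2900 bp.

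**Figure D1:**
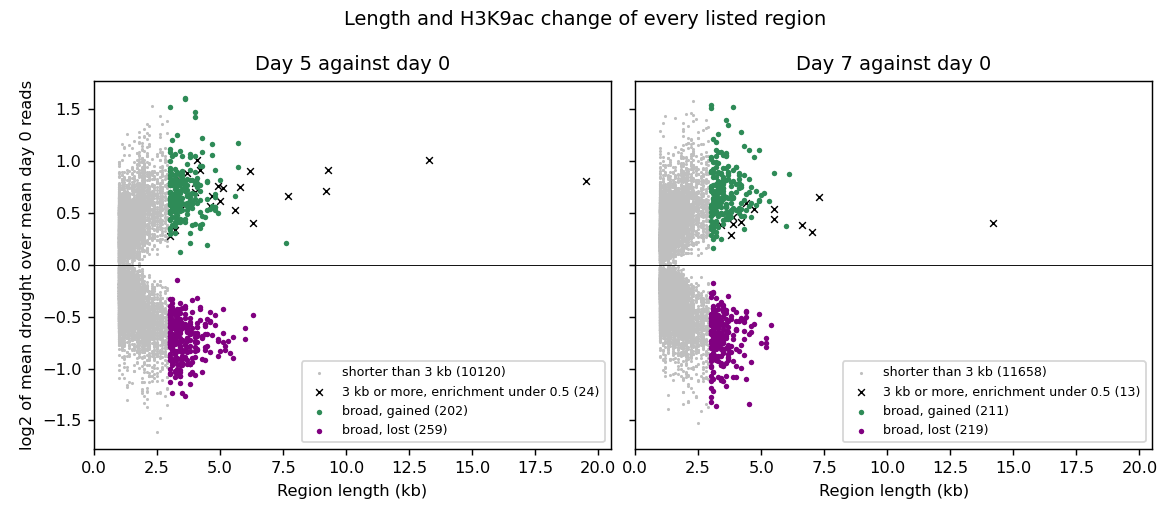
Length in kb against the log2 change of mean drought over mean day 0 reads for every listed region, with day 5 on the left and day 7 on the right. Green and purple points are broad regions that were gained or lost, grey points are shorter regions and crosses are long regions under the enrichment minimum, all of which lie above 0. The smallest change of a broad region is 0.13 in size at day 5 and 0.16 at day 7.

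The largest broad gains of day 5 were close to 3-fold. On chromosome 5 from 21194501 to 21198100 the day 0 libraries held 532 and 552 normalised reads and the day 5 libraries 1585 and 1717. On chromosome 2 from 4441401 to 4445000 they held 701 and 744 at day 0 against 2017 and 2359 at day 5. Both stretches are 3600 bp long, and in both the lower day 5 library held more than 2 times the reads of the higher day 0 library. Their log2 changes were 1.61 and 1.60.

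A 3000 bp region on chromosome 15 that starts at 1334401 held 455 and 330 normalised reads at day 0 and 1020 and 1232 at day 5. As in all broad regions of day 5, the groups did not overlap. The day 0 libraries differed more here, by a ratio of 1.38, than in any other broad region of that day. Its log2 change was 1.52. The remaining 3 gains lay on chromosome 12 from 13159401 to 13163400 (log2 1.47), chromosome 14 from 8085401 to 8089400 (log2 1.42) and chromosome 8 from 584301 to 587600 (log2 1.25).

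The largest broad losses at day 5 were smaller than the largest gains. On chromosome 2 from 13810701 to 13814300 the reads fell from 1472 and 1438 at day 0 to 638 and 575 at day 5. On chromosome 13 from 15307001 to 15310500 they fell from 1516 and 1668 to 685 and 670. Both regions kept less than 50% of the day 0 reads in each library, with log2 changes of -1.26 and -1.23. Chromosome 8 held 2 of the 6 largest losses, from 377201 to 380300 (log2 -1.23) and from 3752701 to 3756100 (log2 -1.14). The others were on chromosome 12 from 14627901 to 14631700 (log2 -1.15) and chromosome 17 from 2558701 to 2561700 (log2 -1.13).

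**Figure D2:**
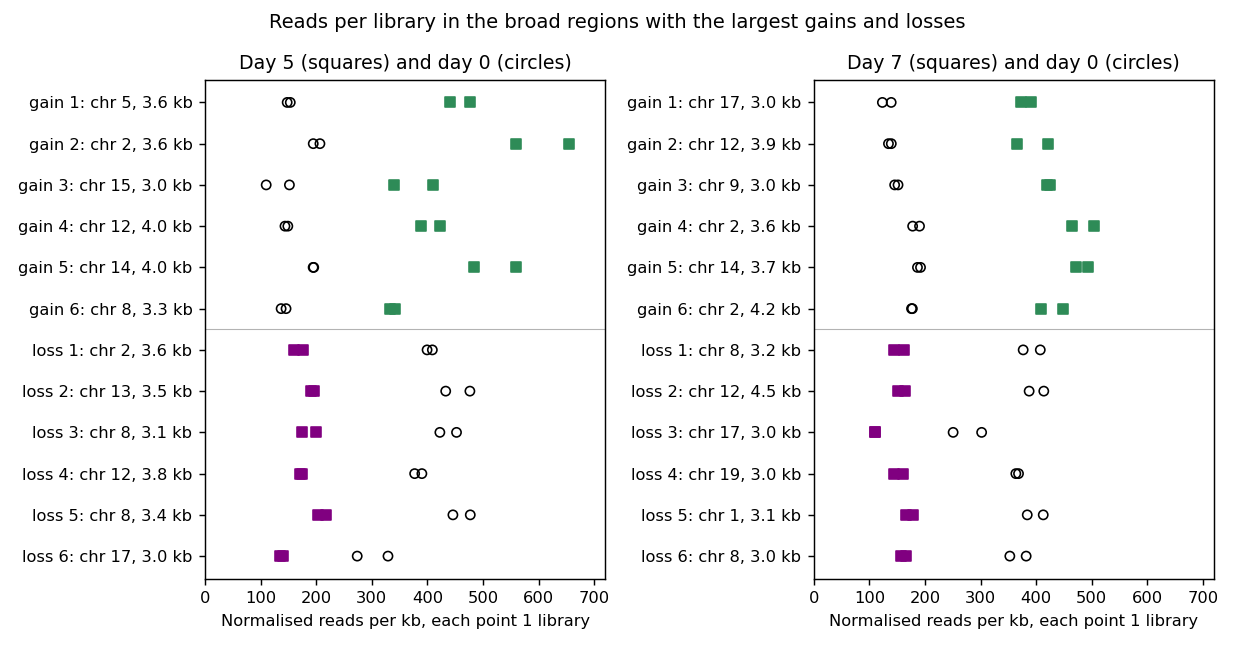
Normalised reads per kb in each library for the 6 largest gains and the 6 largest losses among the broad regions of day 5 (left) and day 7 (right). Circles are the 2 day 0 libraries and squares the 2 drought libraries, green for gains and purple for losses. In every region shown, as in all broad regions, both squares lie on one side of both circles.

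The longest broad region of either day lay on the sequence numbered 20, which the tables name chr20 at day 5 and scaffold_20 at day 7, from 924101 to 931700, a stretch of 7600 bp. It held 7317 and 7642 normalised reads at day 0 and 8712 and 8592 at day 5. The groups were separate but close, with a log2 change of 0.21. It was also the densest, at 984 normalised reads per kb at day 0, above the 770 per kb of the densest lost region.

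The other 7 of the 8 longest regions of day 5 changed more. A 6300 bp region on chromosome 15 from 11701201 to 11707500 fell from 2322 and 2317 normalised reads to 1718 and 1605 (log2 -0.48). Of the regions of 6000 bp, the one on chromosome 12 from 13322301 to 13328300 fell from 2081 and 2066 to 1279 and 1245 (log2 -0.72), and the one on chromosome 3 from 21621001 to 21627000 had a log2 change of -0.61. A 5500 bp region on chromosome 16 from 13985301 to 13990800 had a log2 change of -0.90. Chromosome 5 carried 2 long gains of 5700 bp each. The one from 22867601 to 22873300 rose from 1080 and 1117 normalised reads to 2561 and 2386 (log2 1.17). The one from 24939301 to 24945000 rose from 1028 and 1000 to 1854 and 2035. The last of these, on chromosome 8 from 11880401 to 11886000, had a log2 change of 0.66.

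At day 7 the directions were nearly even, with 211 of the 430 broad regions gained (49.1%) and 219 lost, against 48.7% gained among all listed regions. The median gained region rose from 212 to 348 normalised reads per kb and the median lost region fell from 344 to 208. Median log2 changes were 0.68 and -0.68. The regions covered 1520.7 kb, or 8.52% of listed sequence, and made up 3.55% of the listed regions. Their median length was 3400 bp, 240 were shorter than 3500 bp and 11 reached 5 kb, 6 gained and 5 lost.

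Of the 430, 428 passed an adjusted p of 0.05 in the authors' deposited table, against 89.1% of all listed regions of day 7, 44.1% as gains and 45.0% as losses. The others lay on chromosome 2 from 2879201 to 2882200 (log2 -0.31, adjusted p = 0.226) and on chromosome 9 from 8909401 to 8912500 (log2 0.16, adjusted p = 0.284). In all 430 the day 7 and day 0 libraries did not overlap, as in 97.2% of all listed regions. A log2 change past 1 was found in 44 regions (10.2%), 23 gained and 21 lost, against 1.52% of all listed regions, 7.97% of those of 2500 to 2900 bp and 10.8% of those of exactly 2900 bp. The median size of change was 0.68 in the broad regions and 0.37 over all listed regions of day 7.

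The largest broad gain of day 7, on chromosome 17 from 10097501 to 10100500, rose from 418 and 370 normalised reads at day 0 to 1172 and 1118. The second, on chromosome 12 from 13159401 to 13163300, rose from 544 and 524 to 1425 and 1641. On chromosome 9 from 8822601 to 8825600 the reads rose from 455 and 437 to 1260 and 1276. All 3 lay above day 0 by more than 2 times in each library, with log2 changes of 1.54, 1.52 and 1.51. The next were on chromosome 2 from 4441501 to 4445100 (log2 1.40), chromosome 14 from 8085501 to 8089200 (log2 1.35) and chromosome 2 from 7376101 to 7380300 (log2 1.28).

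Among the losses of day 7, chromosome 8 from 377201 to 380400 fell from 1304 and 1206 normalised reads to 517 and 461 (log2 -1.36). A 4500 bp region on chromosome 12 from 4361401 to 4365900 fell from 1744 and 1862 to 739 and 681 (log2 -1.34). On chromosome 17 from 2558701 to 2561700 the day 0 libraries, at 906 and 752, differed more than the day 7 libraries, at 330 and 331. As in all broad regions of day 7, the groups did not overlap in these 3. The remaining large losses were on chromosome 19 from 13103801 to 13106800 (log2 -1.27), chromosome 1 from 2615601 to 2618700 (log2 -1.21) and chromosome 8 from 688201 to 691200 (log2 -1.18).

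The longest broad region of day 7 was on chromosome 14 from 10078501 to 10084600, 6100 bp that rose from 895 and 818 normalised reads to 1483 and 1658 (log2 0.87). The dense stretch on the sequence numbered 20 was listed again, from 924501 to 930500, with 5360 and 5741 normalised reads at day 0 and 7068 and 7295 at day 7. Its libraries were again separate, and its log2 change was 0.37. The drought over day 0 input ratio implied by the deposited enrichments, set against its median over all listed regions, was 0.41 there on the log2 scale. It was -0.19 in the day 5 region of this sequence. The part of input in these changes was not tested. The other 6 of the 8 longest spanned 5200 to 5500 bp. Gains lay on chromosome 6 from 12262201 to 12267700 (log2 0.88) and chromosome 8 from 4190201 to 4195500 (log2 0.61). Losses lay on chromosome 5 from 3836401 to 3841800 (log2 -0.58), chromosome 6 from 10732101 to 10737300 (log2 -0.79), chromosome 2 from 9027701 to 9032900 (log2 -0.76) and chromosome 16 from 13985401 to 13990600 (log2 -0.71).

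Gained and lost broad regions started from different densities and ended in the reverse order. At day 0 the median lost region of day 5 was denser than the median gained region, 356 against 233 normalised reads per kb, and under drought it was sparser, 216 against 387. On day 7 the day 0 medians were 344 and 212, and the drought medians 208 and 348. Over all listed regions of day 5, broad or not, the median density was 277 at day 0 and 274 under drought. Direction was decided by these same libraries, so a lower start in gained regions is partly built into the split.

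**Figure D3:**
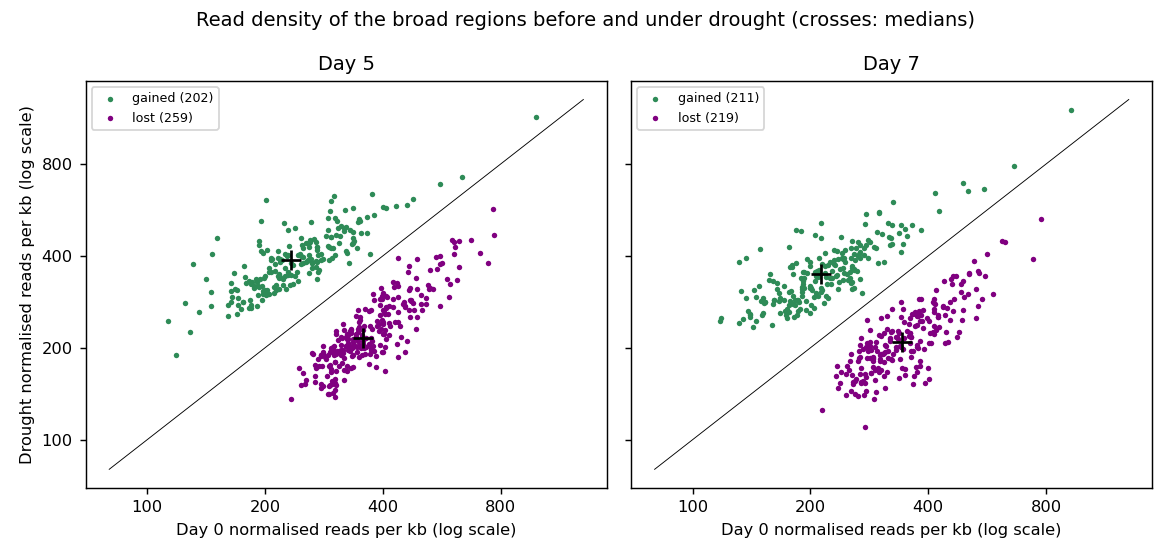
Normalised reads per kb at day 0 against those under drought for each broad region at day 5 (left) and day 7 (right), on log axes. The line marks equal density and black crosses mark the medians of gained (green) and lost (purple) regions. The 2 clouds lie on either side of the line with a gap between them, and the densest point of each panel is the region on the sequence numbered 20.

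Regions lay densely on both sides of the length limit. The 66 broad regions of exactly 3000 bp at day 5 had a median size of change of 0.69 on the log2 scale and were gained in 47.0% of cases, and the 81 regions of 2900 bp had 0.62 and 42.0%. At day 7 the 50 regions of 3000 bp had 0.74 and 40.0%, and the 65 regions of 2900 bp had 0.59 and 52.3%. Regions of 1000 bp, the shortest listed, had medians of 0.28 and 0.25. Near the enrichment limit, the lowest member of day 5 was on chromosome 9 from 7601101 to 7604200, at an enrichment of 0.615 and a log2 change of 0.61. The lowest member of day 7 was on chromosome 10 from 886301 to 889700, at 0.676 and 0.72. A long stretch on chromosome 1 fell on both sides of that limit, with an enrichment of 0.443 at day 5 from 12677201 to 12681200 and of 0.695 at day 7 from 12677701 to 12681500.

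Enrichment over input in the broad regions was moderate, with medians of 1.99 at day 5 and 1.91 at day 7. It was higher in gained than in lost regions, at 2.30 against 1.80 on day 5 and 2.01 against 1.81 on day 7. Gains made up 13.7% of the broad regions with an enrichment of 1 to 1.5 at day 5 and 78.9% of those at 3 or more. The same classes of day 7 held 34.0% and 60.0%. Enrichment was part of the choice of regions and uses the same libraries as the change, so these shares are descriptive.

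The strongest window of a broad region was found at either end and in the middle. The authors' deposited table gives for each region the 1000 bp window with the lowest p. Regions were cut into 3 equal parts. At day 5 the centre of that window lay in the part of lowest coordinates in 166 regions, in the middle in 130 and in the part of highest coordinates in 165. At day 7 the counts were 147, 143 and 140. The centre of a 1000 bp window cannot lie close to an end of the region. The end parts therefore offer it less room than the middle, and similar counts do not mean an even spread. In none of the 891 regions did the deposited log2 fold change of the lowest-p window go against the region as a whole. That window is part of the region and of its listing, so this agreement is built in and nothing is read from it. The median excess of the window's log2 change over that of the whole region was 0.04 at day 5 and 0.07 at day 7. It was larger by more than 0.2 in 107 and 116 regions, and it was smaller than the region's own change in 196 and 152.

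Drought replicates of the broad regions were no closer together than those of all listed regions. The median absolute log2 ratio between replicates was 0.11 at day 5 and 0.09 at day 7, and 0.07 at day 0 in both tables. Over all listed regions it was 0.089 at day 5 and 0.090 at day 7, and 0.076 and 0.073 at day 0 in the day 5 and day 7 tables. The drought replicates lay farthest apart at day 5 on chromosome 12 from 154201 to 157300, with 1263 and 1792 normalised reads against 714 and 762 at day 0. The change there was 1.05 on the log2 scale, and the replicates differed by a ratio of 1.42. The widest gap of day 7 lay on chromosome 4 from 23416601 to 23420200, with 616 and 451 against 836 and 857. Next was chromosome 13 from 4559401 to 4563600, with 831 and 613 against 1368 and 1518. Day 5 replicate 2 was above replicate 1 in 76.7% of gained and 45.2% of lost regions, against 50.9% of all listed regions. Day 7 replicate 2 was above replicate 1 in 65.4% of gained and 35.2% of lost regions, against 51.1% of all listed regions. The size of a change thus depends in part on which drought library is read.

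The implied input stayed close to its median in most broad regions, and one chromosome stood apart. The drought over day 0 input ratio implied by the deposited enrichments was set against its median over all listed regions. It passed 0.5 in size on the log2 scale in 39 broad regions at day 5 (8.46%) and in 6 at day 7 (1.40%). Over all listed regions the shares were 17.5% and 3.60%, and in regions of 2500 to 2900 bp they were 12.8% and 1.05%. Of the 39, 15 were on chromosome 14. On that chromosome the implied input was lower at day 5 in 23 of 23 broad regions, between -1.55 and -0.06 with a median of -0.68, and its median over all listed regions was -0.54. Chromosomes 1 to 19 other than 14 had medians between -0.06 and 0.07. At day 7 the median of chromosome 14 was -0.02 over its listed regions, and its 16 broad regions ran from -0.19 to 0.24. The sign follows the file headers, which assign each group the inputs of the other group as its background. There are no replicate values for the implied input, and its part in the changes was not tested.

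The largest input shift lay on chromosome 14 from 2933001 to 2937100. It held 1955 and 2048 normalised reads at day 0 and 1610 and 1588 at day 5, a small separate loss (log2 -0.32), while the log2 change of its implied input was -1.55. The region from 7895001 to 7898300 on the same chromosome was gained, from 777 and 847 to 1344 and 1333 (log2 0.72), with an input change of -1.14. On chromosome 14, 9 broad regions were gained and 14 lost at day 5, and the part of input in these changes was not tested. The extremes of day 7 were chromosome 12 from 555101 to 559100 (H3K9ac log2 -0.63, input -1.13) and chromosome 15 from 13567301 to 13571100 (H3K9ac log2 0.51, input 0.53). Without chromosome 14 the share of gained regions was 44.1% at day 5 and 49.0% at day 7.

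Broad regions were found on all 19 chromosomes. They made up between 3.46% (chromosome 5) and 5.53% (chromosome 8) of a chromosome's listed regions at day 5, and between 2.35% (chromosome 14) and 4.50% (chromosome 1) at day 7. Chromosome 1 held the most, 54 and 59. The direction varied between chromosomes without a test of it. On chromosome 3, 7 of 27 broad regions were gained at day 5 and 12 of 28 at day 7, while on chromosome 7 it was 11 of 17 and 9 of 14.

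Most broad regions stood alone, with a median distance of 426 kb to the next at day 5 and 467 kb at day 7. A gap of at most 5 kb separated 8 neighbouring pairs at day 5 and 12 at day 7, and within each of these 20 pairs both regions had a single direction. Within 10 kb, 15 of 16 pairs at day 5 and 17 of 17 at day 7 had a single direction. The share was not computed for shorter listed regions, so it is not read as a trait of broad regions. Of the pairs within 5 kb, 5 were present on both days, which share the day 0 libraries, so the 20 are not separate cases. On chromosome 2 from 11708601 to 11718300 the partners rose by 0.86 and 0.83 on the log2 scale at day 5. On chromosome 5 from 25006401 to 25013900 a gap of 400 bp lay between partners at 0.65 and 0.56. On chromosome 8 from 10472901 to 10484500 the pair spanned 11600 bp, with changes of 0.62 and 0.65. Chromosome 9 held 2 of these pairs, a gain from 4664301 to 4674200 (0.76 and 0.89) and the only loss from 6721501 to 6730300 (-1.03 and -0.96). At day 7 the partners in these 5 places changed by 0.54 to 0.86 in the gains and by -0.93 and -0.85 in the loss. The widest span of all was at day 7 on chromosome 1 from 12277001 to 12289500, 12500 bp, with changes of 1.14 and 0.85.

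Of the broad regions of the 2 days, 267 pairs shared at least 1 bp, and each pair joined 1 region of each day. This was 57.9% of the day 5 regions and 62.1% of the day 7 regions. In 107 pairs both days were gained, in 160 both were lost, and in 0 they went opposite ways. The 2 lists share their day 0 libraries, so the directions of a pair are not independent. The pairs shared 920.2 kb, 55.2% of the broad sequence of day 5 and 60.5% of that of day 7. In 31 pairs the coordinates were identical, in 157 at least one end was the same, and in 134 both ends lay within 200 bp of each other. The region was longer at day 5 in 148 pairs, longer at day 7 in 78 and of equal length in 41.

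**Figure D4:**
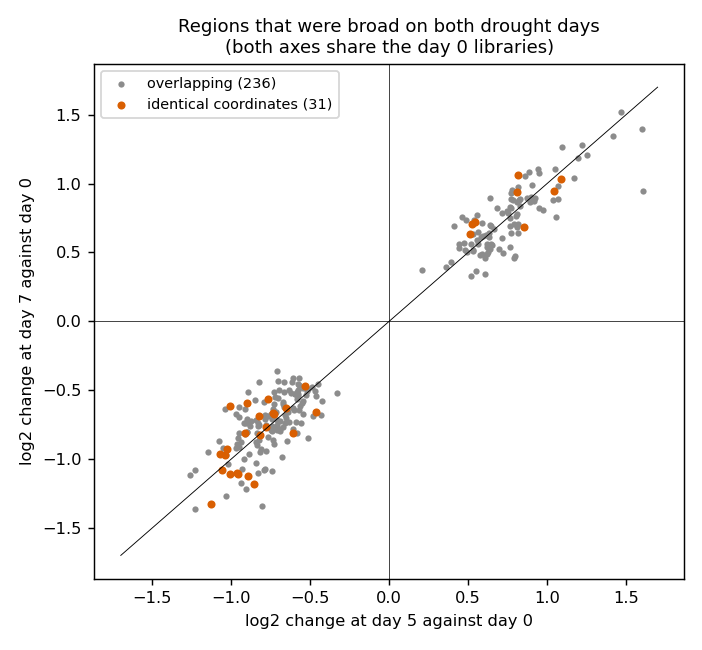
Log2 change at day 5 against log2 change at day 7 for the 267 pairs of overlapping broad regions, with the 31 of identical coordinates in orange and the line of equal change. Both axes share the day 0 libraries. All points lie to the upper right or the lower left of the origin, and the point farthest below the line is the chromosome 5 region with the largest gain of day 5.

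The strongest gain held on both days was on chromosome 12, where the region that starts at 13159401 held 596 and 575 normalised reads at day 0 and 1557 and 1690 at day 5, and at day 7, with that day's scaling, 544 and 524 against 1425 and 1641. The tables were scaled separately, so each day is read against its own day 0 values. In each table both drought values lay far above both day 0 values, and the log2 changes were 1.47 and 1.52. The next were chromosome 2 from 4441401 (1.60 and 1.40), chromosome 14 from 8085401 (1.42 and 1.35), chromosome 2 from 7376001 (1.22 and 1.28) and chromosome 8 from 584301 (1.25 and 1.21).

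The strongest loss held on both days was on chromosome 8 from 377201. It held 1403 and 1310 normalised reads at day 0 against 617 and 538 at day 5, and 1304 and 1206 against 517 and 461 in the day 7 table, with log2 changes of -1.23 and -1.36. On chromosome 17 from 2558701 to 2561700, where the coordinates were identical, the changes were -1.13 and -1.33. The others were chromosome 2 from 13810701 (-1.26 and -1.12), chromosome 13 from 15307001 at day 5 and 15307201 at day 7 (-1.23 and -1.08), and chromosome 15 from 3477101 to 3481100 on both days (-1.06 and -1.08). In all, 18 pairs passed a log2 change of 1 on both days, 10 gained and 8 lost.

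Since the pairs share the day 0 libraries, their changes are set side by side without a test. The median absolute difference of the log2 changes was 0.10, with the larger change at day 5 in 137 pairs and at day 7 in 130. It exceeded 0.3 in 17 pairs. The 2 widest were chosen after their values were seen. On chromosome 5 the largest gain of day 5 held 532 and 552 normalised reads at day 0 against 1585 and 1717. In the day 7 table its counterpart from 21194701 to 21197900 held 483 and 487 against 923 and 942. The region was thus above day 0 on both days, with log2 changes of 1.61 and 0.94. On chromosome 12 the region from 4361401 to 4365500 fell from 1851 and 1962 to 1168 and 1010 at day 5 (log2 -0.81), and the stretch from 4361401 to 4365900 had a log2 change of -1.34 at day 7.

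Most broad regions without a broad counterpart still overlapped some listed region of the other day. Of the 461 broad regions of day 5, 451 (97.8%) overlapped at least 1 listed region of day 7 of any length, and of the 430 of day 7, 416 (96.7%) overlapped one of day 5. The same held for 61.3% and 54.1% of the shorter regions with that enrichment, which differ in length and so are not compared. A single region overlapped the broad one in 391 cases at day 5 and 380 at day 7, and it was split over 2 in 58 and 35 and over 3 in 2 and 1. The listed regions of the other day covered a median of 89.7% and 93.9% of the broad region's length.

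Only 10 broad regions of day 5 and 14 of day 7 had no listed region on the other day at all, and 8 and 13 of these were gained. The largest change among them was on chromosome 12 from 13950401 to 13953400, which rose from 302 and 375 normalised reads at day 0 to 749 and 718 at day 5 (log2 1.12). On day 7 the largest was on chromosome 3 from 13552701 to 13555800, which rose from 514 and 504 to 1031 and 898 (log2 0.92). In both, as in every broad region, the groups did not overlap. The longest such region was on chromosome 1 from 44132501 to 44137100, 4600 bp with a log2 change of 0.59 at day 7. Reads of the other day are not tabulated there, so no change on the other day can be given.

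Overlaps of opposite direction were few and involved short regions. In 23 places a broad region overlapped a region of 1000 to 2000 bp that had the opposite direction on the other day, 16 for broad regions of day 5 and 7 for those of day 7. In 15 of the day 5 regions and 5 of the day 7 regions concerned, another listed region of the other day went in the broad region's own direction. A broad region with overlaps in the opposite direction alone was found 1 time at day 5 and 2 times at day 7.

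Mild and severe drought were compared directly in the broad regions that had identical coordinates in both tables. There the reads of the day 0 libraries were the same in both tables, which allowed all 6 libraries to be put on a single scale. The regions had been listed against day 0 in both tables with the same ends, which depends on the day 5 and day 7 reads and favours regions that changed alike, so a count of 0 here says little of a difference between the days. limma was fitted to all 593 regions of identical coordinates, and 31 of these were broad, 8 gained and 23 lost against day 0. At an adjusted p of 0.05 limma called 0 of the 31 and 0 of the 593 (0%), and the smallest adjusted p was 0.285. Without adjustment, a limma p under 0.05 was reached by 8 of the 31 (25.8%) and 59 of the 593 (9.95%). The 593 include many shorter regions with fewer reads, so these shares are not compared. The difference between the days ran from -0.33 to 0.39 on the log2 scale, with 18 regions higher at day 7 and 13 lower. An exact permutation test of 2 against 2 libraries cannot give a p below 0.333.

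**Figure D5:**
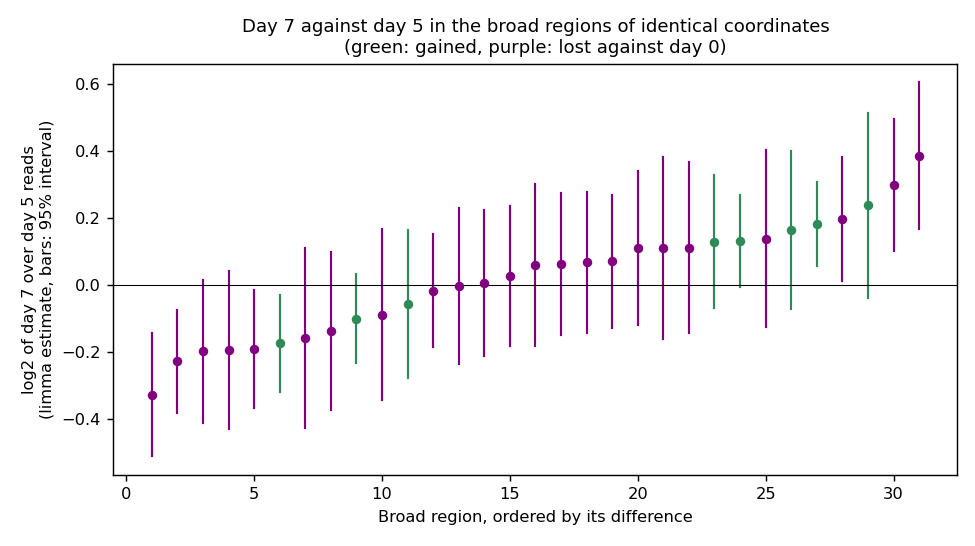
Log2 of day 7 over day 5 reads for the 31 broad regions of identical coordinates, ordered by size, with limma estimates as points and 95% intervals as bars. Green regions were gained and purple regions lost against day 0. The estimates run from -0.33 to 0.39, and 23 of the 31 intervals include 0.

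The largest difference lay in a lost region on chromosome 5 from 4954801 to 4958100. It held 1946 and 1940 normalised reads at day 0, 920 and 1011 at day 5 and 1386 and 1148 at day 7, all on the day 5 scale. Both drought days were below day 0 and the day 7 values were above those of day 5, but the difference of 0.39 (SE 0.09, limma adjusted p = 0.285) did not pass. On chromosome 8 from 688201 to 691200 the reads were 1153 and 1252 at day 0, 678 and 651 at day 5 and 515 and 543 at day 7. Here the values fell in order with no overlap, and the difference of -0.33 (SE 0.08, limma adjusted p = 0.285) did not pass either. On chromosome 11 from 17078401 to 17081700 they were 1101 and 1194, 620 and 612, and 714 and 804, a difference of 0.30 (SE 0.09, limma adjusted p = 0.329).

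Over the 31 regions the median SE was 0.09 and the 95% interval reached a median of 0.21 to each side of the estimate. Intervals extended as far as 0.61 from 0. A miss of the threshold therefore does not show that the days were alike in these regions. The other 236 pairs were outside this comparison.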

How the data were processed

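H3K9ac was profiled by chromatin immunoprecipitation and sequencing in 2 libraries of each of 3 groups, with 2 inputs each. Reads were aligned with Bowtie, per the submitters' processing notes, with no version stated. Changed regions were called with diffReps 1.55.4, per the file headers, by a negative binomial test on 1000 bp windows moved in steps of 100 bp, with a window p cutoff of 0.0001. The authors' deposited tables give for each region the reads per library divided by a normalisation constant, which is neither a raw count nor a read density. They also give the group mean as a normalised signal, and the ratio of reads to input (enrichment). The authors' log2 fold change compares drought with day 0 for the region and for its lowest-p window. The deposited p-values were adjusted by the Benjamini-Hochberg method, per the file headers. For each group the deposited enrichment uses the other group's inputs as background, per the file headers, which leaves the geometric mean of the 2 enrichments unaffected by the exchange. Each table mixes calls at an adjusted p of 0.05 with regions above it.

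From these, each library's reads were taken from the paired cells, and the log2 change was computed as mean drought over mean day 0 normalised reads, with no pseudocount or filter on low values. Multiplying by the constants gave whole reads within 0.1 in 100% of the values, which were used for counting errors alone. A count model planned for recovered reads was not run, since the deposited cells hold normalised values. The day 7 reads were multiplied by a factor of 1.09, taken from the shared day 0 libraries, to reach the day 5 scale. limma 3.58.1 in R 4.3.3 compared day 7 with day 5 over 593 regions, with a variance trend and Benjamini-Hochberg adjustment, and was tested on simulated data. Other values were computed with Python 3.11.15, pandas 2.3.3 and numpy 2.4.6. Overlap means at least 1 shared bp.

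The regions named were the 8 longest, the 6 largest gains and the 6 largest losses of each day. Added to these were the 5 gained and 5 lost pairs with the largest smaller change, the 2 widest replicate ratios and input changes of each day, and the 3 largest differences between days. Members and lists were chosen with earlier results of these data known. Other length and enrichment limits, unscaled reads, input correction, a replicate block and the removal of each library were tried as alternatives.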

Additional observations from a re-analysis of the deposited data

Results flagged for a closer look

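In 9 places a broad region lay above or below day 0 in both drought libraries of one day, and a listed region of the other day that shared at least 1000 bp with it lay on the opposite side in both of its libraries. The coordinates differ, the tables were scaled separately and share the day 0 libraries, and the differences between the days were not tested. In 6 of the 9 places the change of the opposite region was under 2 counting standard errors, between 0.31 and 1.90, and it passed 2 only on chromosome 17, in the chromosome 6 region from 13192301 and on chromosome 5. In 7 of the 9 another listed region of the other day overlapped the broad region and had its direction. The values that follow are day 7 minus day 5 differences of log2 change.

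On chromosome 8 the broad loss of day 5 from 3752701 to 3756100 (log2 -1.14) overlapped a day 7 region from 3752801 to 3753800 with 306 and 307 normalised reads at day 0 and 322 and 340 at day 7, a difference of 1.25. The rest of the stretch was listed at day 7 from 3753901 to 3755800 with a change of -0.43, in the direction of day 5. On chromosome 17 the loss from 13121101 to 13124200 (-0.52) met a region from 13122601 with a change of 0.23, a difference of 0.76, and its other overlap had -0.55. Chromosome 10 held 2 such places. The gain from 13679801 (0.54) met a region at -0.11, a difference of -0.65, and its other overlap had 0.40. The gain from 12502801 (0.39) met one at -0.02, a difference of -0.41, and its other overlap had 0.16.

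On chromosome 6 the gain from 13190301 (0.31) met a region at -0.24, a difference of -0.55, and the loss from 3723101 (-0.40) met one at 0.10, a difference of 0.51, and its other overlap had -0.60. On chromosome 18 the gain from 12645901 (0.33) met a region at -0.10, a difference of -0.44, and its other overlap had 0.25. For broad regions of day 7, the gain on chromosome 5 from 7476601 (0.31) met a day 5 region at -0.17, a difference of 0.48, and the loss on chromosome 16 from 13667301 (-0.39) met one at 0.10, a difference of -0.50, and its other overlap had -0.68.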

How the results depend on the processing

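Of 59 values recomputed under alternatives, 51 stayed within the limits set for them and 8 moved beyond them. The number of broad regions follows the length limit, with 984 at 2500 bp and 106 at 4000 bp for day 5, and 907 and 80 for day 7. Their overlap between days was then 566 and 45, and it was 451 when any listed region of day 7 counted. The share gained at day 7 changed from fewer gained than lost to more gained than lost under 2 alternatives. It was 55.0% at 4000 bp and 50.6% without an enrichment minimum. Unscaled reads gave 43.8% gained at day 5 and 47.4% at day 7. Leaving out each library in turn kept the share gained at 43.8% to 43.8% at day 5 and 49.1% to 49.1% at day 7, where libraries that do not overlap fix the direction, and gave a median size of change of 0.65 to 0.72 and 0.65 to 0.70. The limma comparison of the days called 0 to 0 broad regions without any one library, and 10 of all 593 without day 5 replicate 1. Without a day 5 or day 7 library that day has 1 sample, which is assumed to vary like the other groups, so these fits say little of stability. With the replicate number as a block limma called 0 broad regions, and 10 at an unadjusted p of 0.05. Deviations of same-numbered libraries correlated at 0.09, 0.16 and 0.19 over the 593 regions. The labels do not say what libraries of the same number share, and a shared batch or pairing was not tested. Leaving out chromosome 14 was chosen after seeing the data.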

Other observations

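The adjusted p in the authors' deposited table did not track the size of a change in the shortest regions. All 3233 regions of 1000 bp at day 5 and all 4115 at day 7 passed 0.05. Of these, 756 and 1236 had changes under 2 counting standard errors of their recovered reads. A region of 1000 bp has the size of a single window, and windows were listed at a p cutoff of 0.0001. How windows with such small changes came to pass was not tested, and nothing is read from these calls. The change of a broad region was at least 3.18 counting standard errors at day 5 and 3.29 at day 7, with medians of 14.9 and 14.3. In regions of 2500 to 2900 bp the minima were 2.04 and 2.30, and the medians 11.2 and 11.0. The same reads listed the regions, and longer regions hold more reads, so nothing is read from these values. On chromosome 10 a day 7 region of 1000 bp from 12503601 had a log2 change of -0.02 and a deposited adjusted p of 2.1e-05, while its neighbour from 12504701 had 0.16 and a deposited adjusted p of 1. Counting errors leave out the spread between libraries.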
